A study of Mus musculus with 10 samples.

Results

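Mitochondrial ribosomal protein genes were followed in the livers of mice that carry human APOE4 or human APOE3 in place of their own Apoe gene. All genes whose symbol begins with Mrpl or Mrps and a number were taken, where the array's annotation gave a probe set exactly 1 symbol. The rule found 76 genes with 156 probe sets, out of 18194 genes on the array that have a probe set of 1 symbol. The brightest probe set over all 10 arrays stood for each gene, and a mean log2 value under 4 counted as near background. All 76 genes passed that limit, which 8535 of the 18194 genes did; the filter used the mean of both genotypes together.

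The APOE4 group held 5 female mice, homozygous for the APOE4 targeted replacement and labelled B6.129P2-Apoetm3(APOE*4)Mae N8. The APOE3 group held 5 female mice, homozygous for the APOE3 replacement and labelled B6.129P2-Apoetm2(APOE*3)Mae N8. Both groups were of C57BL/6 strain background and 3 months old, lacked mouse Apoe, expressed the human gene from the murine Apoe promoter, and ate a high-fat diet in which milk fat supplied 41% of the energy and which held cholesterol at 2 g/kg. The design text gives 6 weeks on the diet and the growth protocol gives 2 months. No mouse with its own Apoe gene and no mouse on another diet was compared here, so every difference given is between these 2 genotypes on this diet.

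Each animal gave 1 liver RNA extract and 1 array, so the spread within a genotype is a spread between animals, and with so few arrays precision is limited. The values are log2 intensities, on which a difference of 1 is a doubling, and differences are APOE4 minus APOE3. The Apoe probe set read 1.00 to 1.19 in APOE4 livers and 0.96 to 1.12 in APOE3 livers, at the array's floor in all 10. The 8 hepatocyte markers were all above background, and their summed level was 16.97 to 17.05 in APOE4 livers and 16.94 to 17.04 in APOE3 livers. The 10 Kupffer cell and macrophage markers summed to 12.37 to 13.17 in APOE4 livers and 12.53 to 13.72 in APOE3 livers, with APOE3 replicate 4 the highest of all. Of these 10 markers 9 had a difference below 0, with a median of -0.247, and with limma 0 passed the adjusted test or had an unadjusted p under 0.05. All 4 cholangiocyte markers measured (Epcam, Krt19, Krt7 and Sox9) were near background. In whole liver, fewer cells of a type and less RNA per cell cannot be told apart.

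Mitochondrial ribosomes translate the few proteins encoded by mitochondrial DNA, which are core subunits of the respiratory chain and the ATP synthase. Their RNAs come from mitochondrial DNA, but all of their proteins are encoded in the nucleus, made on cytosolic ribosomes and imported. Some of these proteins descend from bacterial ribosomal proteins, and others were added in the mitochondrial lineage. The large subunit holds the peptidyl transferase centre and the exit tunnel, and the small subunit binds the mRNA and holds the decoding site. Hepatocytes are rich in mitochondria, on which fatty acid oxidation, ketogenesis and part of the urea cycle depend.

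Promoter sequence is shown for 5 members, chosen to show both motifs searched, a member whose genotypes did not overlap (Mrps22), the member with the largest difference (Mrpl34), and the short stretches that pairs of neighbouring genes share. The sequences are RefSeq's, build GRCm38.p6, read 5′ to 3′ on the member's own strand and ending at the base before its start. Capitals mark CCGGAAG, the core of the motif of ETS family factors such as GABP, or GCATGCGC, that of the nuclear respiratory factor NRF1, on either strand. The Mrps22 stretch is chr9:98601680-98601829 on the minus strand, the Mrpl34 stretch chr8:71464776-71464925 on the plus strand, and the Mrpl22 stretch chr11:58171514-58171663 on the plus strand. The Mrps12 stretch, chr7:28741822-28741967 on the minus strand, is all the sequence between its start and that of Sars2. The Mrps11 stretch, chr7:78783090-78783130 on the plus strand, is all the sequence between its start and that of Mrpl46, another member.
Mrps22: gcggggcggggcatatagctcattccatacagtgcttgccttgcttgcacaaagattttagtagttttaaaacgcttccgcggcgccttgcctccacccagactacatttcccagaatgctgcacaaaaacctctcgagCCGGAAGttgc
Mrpl34: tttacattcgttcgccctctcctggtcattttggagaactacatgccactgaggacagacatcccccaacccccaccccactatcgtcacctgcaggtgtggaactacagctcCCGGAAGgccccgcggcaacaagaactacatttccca
Mrpl22: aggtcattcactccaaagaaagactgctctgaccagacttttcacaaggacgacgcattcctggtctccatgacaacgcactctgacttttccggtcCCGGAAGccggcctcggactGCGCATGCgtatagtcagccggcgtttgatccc
Mrps12: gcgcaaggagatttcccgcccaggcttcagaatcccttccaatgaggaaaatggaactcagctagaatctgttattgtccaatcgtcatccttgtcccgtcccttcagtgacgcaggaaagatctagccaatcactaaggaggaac
Mrps11: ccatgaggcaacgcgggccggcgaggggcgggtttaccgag

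Mrps22 and Mrpl34 each hold 1 ETS match in these stretches, Mrpl22 holds an ETS match and an NRF1 match that do not overlap, and the stretches of Mrps12 and Mrps11 hold neither. Over the 250 bases upstream of each start, 67 of the 76 members had a RefSeq window, with 73 windows in all. The ETS motif lay in 17 of the 73 windows (23.3%), against 6.91% of all 32851 promoter windows of that length and 8.98% of the 21262 windows of protein-coding genes. The NRF1 motif lay in 8 of them (11%), against 2.26% of all windows and 2.93% of those of protein-coding genes. Members' windows were also richer in G and C, with a median of 58.4% against 55.6% in protein-coding genes and a median of 17 CpG pairs against 10. A match is a description of the letters and not a bound site.

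Expression of the mitochondrial ribosomal protein genes was a little higher on average in APOE4 than in APOE3 livers, and no single gene passed the test. With limma, 0 of the 76 members passed an adjusted p of 0.05, and the smallest adjusted p was 0.571, for Mrps18b. Over all 14732 tested probe sets, 12 passed (0.0815%). The difference was above 0 in 69 of the 76 members (90.8%), where 60.9% of all tested probe sets were above 0. The members' median difference was 0.150, a fold of 1.11, against 0.047 for all tested probe sets, and the members ranged from -0.22 (Mrps9) to 0.43 (Mrpl34). At an unadjusted p under 0.05, 13 of 76 members (17.1%) were higher in APOE4 and 0 were lower, against 5.53% higher and 2.46% lower among all tested probe sets.

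The members' own median depended on scaling and on single livers. The members' median was 0.093 when each array was centred on its median, with 59 of 76 members above 0, where 47.5% of all tested probe sets were above 0 and their median was -0.010. After a renewed quantile normalization it was 0.102 with 62 members above 0. There 51% of all tested probe sets were above 0, and their median was 0.004. With both scalings the median of all tested probe sets thus fell too, from 0.047 in the main fit. Without APOE3 replicate 4 the members' median was 0.087 with 63 members above 0, and without APOE3 replicate 1 it was 0.206 with 71 above 0. The median and share above 0 of all tested probe sets are not given here for these 2 fits. Their values therefore cannot be set against the array as a whole. The count with an unadjusted p under 0.05 moved most: it was 4 without APOE3 replicate 4, 5 without APOE3 replicate 3 or without APOE4 replicate 3, 6 without APOE3 replicate 2 or without APOE4 replicate 2, and 24 without APOE3 replicate 1. It was 5 with centred arrays and 6 after renewed quantile normalization. These counts at an unadjusted p were chosen after the data had been seen. The share of all tested probe sets at that level is given for the main fit alone. The counts under alternatives therefore cannot be set against the array as a whole.

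**Figure D1:**
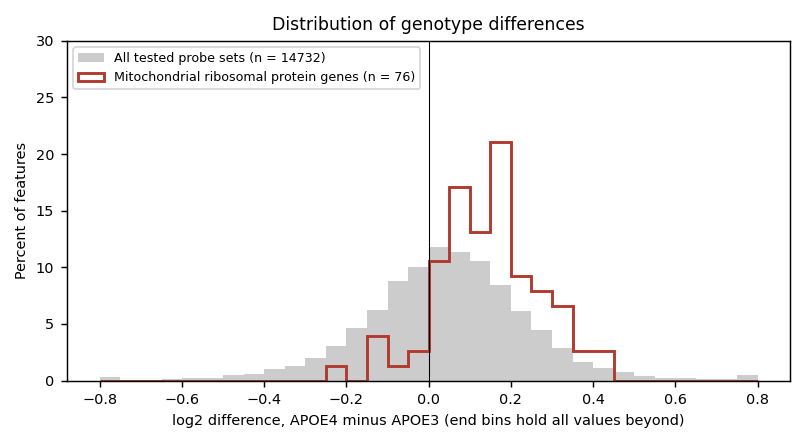
Percent of features (vertical axis) by log2 difference, APOE4 minus APOE3 (horizontal axis), for the 76 mitochondrial ribosomal protein genes (red outline) and all 14732 tested probe sets (grey). The red outline lies mostly right of 0, with a median of 0.150, against 0.047 for all tested probe sets, and stays between -0.22 and 0.43.

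Among the large-subunit proteins with a bacterial counterpart, 26 of 28 members had a difference above 0, with a median of 0.177. None passed the adjusted test, and 6 had an unadjusted p under 0.05 (Mrpl21, Mrpl34, Mrpl47, Mrpl22, Mrpl19 and Mrpl35). Mrpl34, a small basic protein of the large subunit (probe set 1416349_at, chromosome 8), read 7.86, 7.73, 8.19, 8.12 and 8.07 in APOE4 replicates 1 to 5, against 7.79, 7.12, 7.70, 7.25 and 7.96 in APOE3 replicates 1 to 5. APOE3 replicates 1 and 5 lay inside the APOE4 range and the other 3 below it. The difference was 0.43 ± 0.17 (SE, n = 5 each; adjusted p = 0.584), with a mean of 8.00 ± 0.19 in APOE4 and 7.56 ± 0.36 in APOE3 livers (SD).

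Mrpl21 (1452580_a_at, chromosome 19) read 7.04, 7.15, 7.12, 7.12 and 7.01 in the APOE4 livers, against 7.12, 6.44, 6.73, 6.67 and 6.83 in the APOE3 livers. The APOE4 values were close together, and of the APOE3 livers replicate 1 alone reached them. The difference was 0.33 ± 0.12 (SE; adjusted p = 0.58), the smallest unadjusted p of this class (0.0188). Mrpl22, whose bacterial counterpart lines the exit tunnel (1435995_at, chromosome 11), read 9.85, 9.71, 9.75, 9.79 and 9.59 in APOE4 livers, against 9.76, 9.22, 9.60, 9.13 and 9.42 in APOE3 livers. APOE3 replicates 2, 4 and 5 lay below all APOE4 livers, and the difference was 0.31 ± 0.127 (SE; adjusted p = 0.588).

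Mrpl35 (1419363_a_at, chromosome 6) was 1 of the 2 members whose genotypes did not overlap. It read 8.43, 8.71, 8.58, 8.47 and 8.42 in APOE4 livers, against 8.42, 8.29, 8.27, 8.14 and 8.40 in APOE3 livers. The lowest APOE4 and the highest APOE3 liver were only 0.002 apart, and the difference was 0.22 ± 0.0946 (SE; adjusted p = 0.602). A second tested probe set of Mrpl35, close to background at a mean of 4.19, had a difference of 0.00. Mrpl47, whose bacterial counterpart sits at the exit of the tunnel, averaged 8.74 ± 0.22 in APOE4 and 8.41 ± 0.19 in APOE3 livers (SD; adjusted p = 0.584).

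Other members of this class had smaller differences for their spread. Mrpl12, the stalk protein that also binds the mitochondrial RNA polymerase, averaged 11.08 ± 0.11 in APOE4 and 10.93 ± 0.17 in APOE3 livers (SD; difference 0.15, adjusted p = 0.737). Mrpl3, a core protein near the peptidyl transferase centre, averaged 8.53 ± 0.14 in APOE4 and 8.43 ± 0.15 in APOE3 livers (adjusted p = 0.842). Mrpl1, a protein of the other stalk, had the largest spread of all members, an SD within genotype of 0.373, with APOE3 replicate 4 at 7.69 and its other APOE3 values at 8.30 to 8.82. Mrpl32, which is cleaved by the m-AAA protease before assembly in yeast and mouse, averaged 9.55 ± 0.15 in APOE4 and 9.35 ± 0.43 in APOE3 livers, and its APOE3 replicate 4 read 8.62. In their chosen probe sets, 2 members of the class were below 0. Mrpl13 was at 10.51 ± 0.13 in APOE4 and 10.64 ± 0.26 in APOE3 livers (difference -0.13, adjusted p = 0.823), and its other 2 tested probe sets gave -0.10 and -0.16. Mrpl15 was at 10.38 ± 0.08 in APOE4 and 10.39 ± 0.08 in APOE3 livers (difference -0.01), while 4 of its other tested probe sets gave 0.16, 0.11, 0.06 and 0.24, and the remaining one, close to background, was at 0 to 2 decimals.

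Among large-subunit proteins listed as specific to mitochondria, 14 of 18 members were above 0 in their chosen probe sets, with a median of 0.059. Differences between classes were not tested. The 3 with an unadjusted p under 0.05 were Mrpl49, Mrpl46 and Mrpl43. Mrpl49 (1423218_a_at, chromosome 19) read 7.61, 7.86, 7.99, 7.77 and 7.56 in APOE4 livers, against 7.79, 7.28, 7.22, 7.08 and 7.58 in APOE3 livers. APOE3 replicates 1 and 5 overlapped the APOE4 livers and the other 3 did not, with a difference of 0.37 ± 0.147 (SE; adjusted p = 0.584). Its second probe set had a similar difference of 0.30 ± 0.187 (adjusted p = 0.703).

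Mrpl46 (1449004_at, chromosome 7), a protein near the central protuberance, read 7.98, 8.06, 7.96, 7.97 and 8.05 in APOE4 livers, against 8.03, 7.74, 7.66, 7.61 and 7.83 in APOE3 livers. The APOE4 livers lay within a narrow band that APOE3 replicate 1 alone entered, and the difference was 0.23 ± 0.0961 (SE; adjusted p = 0.588). Mrpl44, which has an RNase III fold (1437391_x_at, chromosome 1), read 9.35, 9.53, 9.47, 9.47 and 9.38 in APOE4 livers, against 9.66, 9.58, 9.66, 9.42 and 9.48 in APOE3 livers. Its APOE4 values ran lower with overlap, a difference of -0.12 ± 0.0854 (SE; adjusted p = 0.74), and its 4 tested probe sets ran from -0.12 to 0.17, with signs that disagreed. Mrpl48 had a difference of -0.10 (adjusted p = 0.757) in its chosen probe set and 0.17 in its other tested one (adjusted p = 0.763). Mrpl50 likewise had -0.06 in its chosen probe set and 0.17 in its other (adjusted p = 0.929 and 0.789), so neither gene has a settled direction. Mrpl54 had -0.03. Mrpl58, the peptidyl-tRNA hydrolase also called Ict1 that frees stalled ribosomes, averaged 9.40 ± 0.09 in APOE4 and 9.37 ± 0.14 in APOE3 livers (adjusted p = 0.963).

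Mrps18a and Mrps30 carry small-subunit symbols, but their proteins sit in the large subunit. Mrps18a averaged 9.25 ± 0.11 in APOE4 and 9.08 ± 0.31 in APOE3 livers (difference 0.18, adjusted p = 0.772). Mrps30 averaged 7.94 ± 0.12 in APOE4 and 7.86 ± 0.14 in APOE3 livers (difference 0.07, adjusted p = 0.869).

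In the small subunit, 24 of 25 listed members had a difference above 0 and the median was 0.150. This was the same as that of the 48 listed large-subunit members, of which 42 were above 0. Proteins with a bacterial counterpart had 14 of 15 members above 0 and a median of 0.150, and 1 of them, Mrps12, had an unadjusted p under 0.05. Mrps12, the counterpart of the bacterial protein that shapes the decoding site (1448799_s_at, chromosome 7), read 9.36, 9.00, 9.13, 9.12 and 9.04 in APOE4 livers, against 9.04, 8.83, 8.91, 8.76 and 8.95 in APOE3 livers. To 2 decimals, APOE4 replicates 2 and 5 lay at or below APOE3 replicate 1, and the difference was 0.23 ± 0.0971 (SE; adjusted p = 0.588).

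Mrps11 (1460195_at, chromosome 7) had the largest difference of the small subunit, 0.41 ± 0.188 (SE; adjusted p = 0.63). It read 6.80, 6.53, 6.51, 6.22 and 6.68 in APOE4 livers, against 6.54, 5.85, 6.07, 5.67 and 6.57 in APOE3 livers. APOE3 replicates 1 and 5 lay among the APOE4 livers and the other 3 below them. Mrps7, whose bacterial counterpart starts the assembly of the small subunit's head, averaged 9.15 ± 0.10 in APOE4 and 8.99 ± 0.16 in APOE3 livers (adjusted p = 0.707), and Mrps5 averaged 7.75 ± 0.22 in APOE4 and 7.68 ± 0.19 in APOE3 livers (adjusted p = 0.916).

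Mrps9 (1448921_a_at, chromosome 1), whose bacterial counterpart reaches the P-site tRNA, was the small-subunit member below 0. It read 8.17, 8.56, 8.33, 8.37 and 8.29 in APOE4 livers, against 8.56, 8.92, 8.30, 8.23 and 8.80 in APOE3 livers. The ranges overlapped widely, and the difference was -0.22 ± 0.144 (SE; adjusted p = 0.715). Its other 2 tested probe sets gave -0.19 and -0.01.

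All 10 small-subunit proteins listed as specific to mitochondria had a difference above 0, with a median of 0.160, and 3 had an unadjusted p under 0.05 (Mrps18b, Mrps25 and Mrps22). Mrps18b (1451164_a_at, chromosome 17) stands in that list although its sequence is related to a bacterial protein, as are those of its paralogs Mrps18a and Mrps18c. It read 9.70, 9.32, 9.53, 9.13 and 9.48 in APOE4 livers, against 9.27, 8.94, 9.06, 8.84 and 9.19 in APOE3 livers. APOE4 replicate 4 alone lay inside the APOE3 range, and the difference was 0.37 ± 0.127 (SE; unadjusted p = 0.014, adjusted p = 0.571). Its paralog Mrps18c, in the class with bacterial counterparts, averaged 10.29 ± 0.11 in APOE4 and 10.22 ± 0.18 in APOE3 livers (adjusted p = 0.876).

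Mrps22 (1416595_at, chromosome 9), mutated in human mitochondrial disease, was the other member whose genotypes did not overlap. It read 9.23, 9.56, 9.31, 9.26 and 9.22 in APOE4 livers, against 9.13, 9.00, 9.04, 8.68 and 9.19 in APOE3 livers. The lowest APOE4 liver was 0.032 above the highest APOE3 liver, and the difference was 0.31 ± 0.115 (SE; adjusted p = 0.58). With Mrpl35 that makes 2 of 76 members (2.63%) without overlap and higher in APOE4, against 1.45% of all tested probe sets, and 0 members without overlap and lower, against 0.563%. Mrps25 (1449194_at, chromosome 6) read 8.49, 8.35, 8.43, 8.48 and 8.58 in APOE4 livers, against 8.47, 8.19, 7.94, 8.21 and 8.07 in APOE3 livers. APOE3 replicate 1 again lay among the APOE4 livers, apart from the other 4, with a difference of 0.29 ± 0.107 (SE; adjusted p = 0.58).

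Mrps28, Mrpl55 and Mrps36 were in none of these classes and are left out of the subunit counts. Their differences were 0.15, 0.13 and 0.25. Mrps36, now known as a subunit of the 2-oxoglutarate dehydrogenase complex and not of the ribosome, averaged 5.91 ± 0.13 in APOE4 and 5.65 ± 0.36 in APOE3 livers (SD; adjusted p = 0.713).

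**Figure D2:**
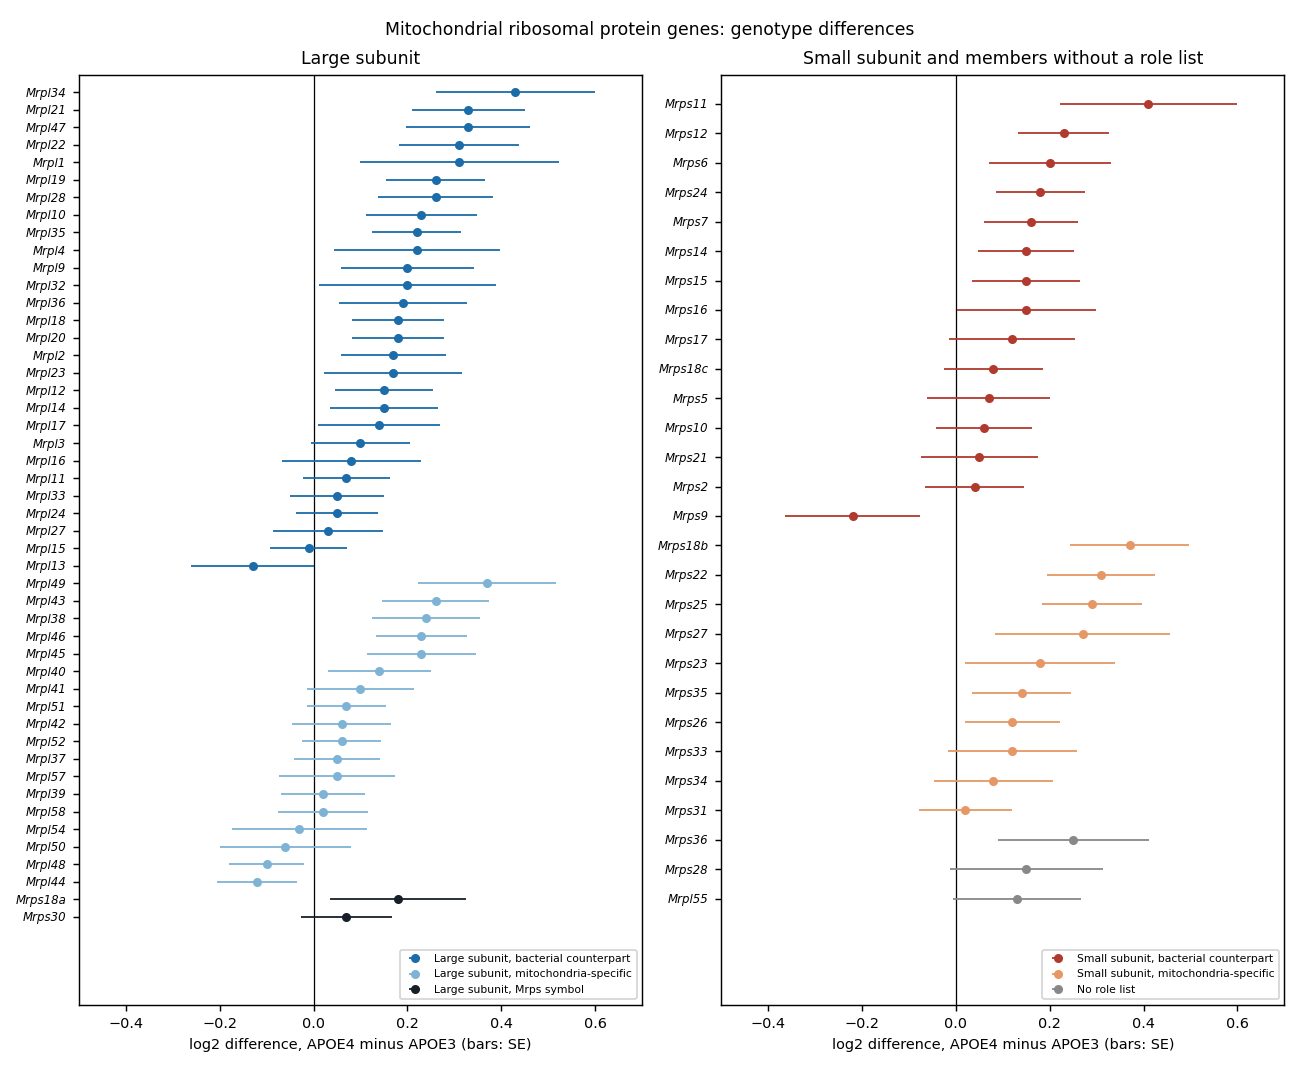
Log2 difference, APOE4 minus APOE3 (horizontal axis; points, with SE as bars), for each of the 76 genes, by subunit and class. Most points lie right of 0, from Mrps9 at -0.22 to Mrpl34 at 0.43, and 7 lie left of it. Mrps28, Mrpl55 and Mrps36, which are in no class, are drawn in the panel of the small subunit.

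**Figure D3:**
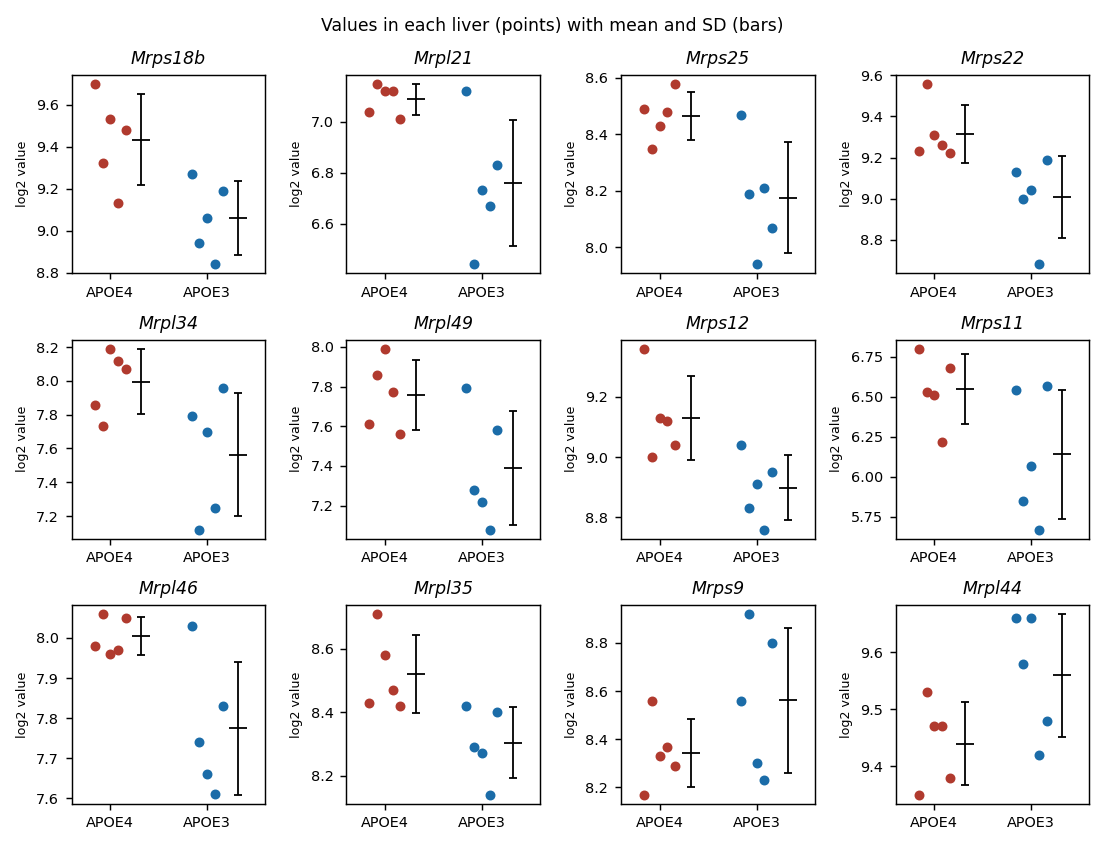
Log2 values of 12 members in each liver (points), APOE4 left and APOE3 right, with the mean and SD beside them; each panel has its own vertical axis. The genotypes do not overlap in Mrps22 and Mrpl35, and APOE4 runs lower in Mrps9 and Mrpl44.

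Where a gene had several probe sets, they did not always agree. Of the 25 members with at least 2 tested probe sets, 16 had differences of 1 sign and 9 of differing signs, and 95 of the 114 tested probe sets of members were above 0. The largest gap was in Mrps14, a small-subunit protein with a bacterial counterpart, at 0.15 for its brighter probe set and -0.19 for its dimmer one (adjusted p = 0.724 and 0.672). The large-subunit gene Mrpl28 followed, with 0.26, 0.02 and -0.07, the last from a probe set close to background at a mean of 4.31. In Mrpl52, listed as a mitochondria-specific protein of the large subunit, the chosen probe set had a difference of 0.06 (adjusted p = 0.884), while its other 2 had 0.24 and 0.31 (adjusted p = 0.582 and 0.571).

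Most members shared a liver's position relative to the other livers, above all among the APOE3 livers. For each liver the median of the members' deviations from their own means over the 10 arrays was taken. It was 0.048, 0.110, 0.085, 0.045 and 0.021 in APOE4 replicates 1 to 5, against 0.149, -0.116, -0.133, -0.225 and 0.004 in APOE3 replicates 1 to 5. All APOE4 livers were thus slightly above 0, while the APOE3 livers held both the highest and the lowest, with means of 0.062 ± 0.036 in APOE4 and -0.064 ± 0.144 in APOE3 (SD, n = 5 each). For all tested probe sets the median deviation ran from 0.008 to 0.026 in APOE4 livers and from -0.040 to 0.004 in APOE3 livers. In APOE3 replicate 4, 73 of 76 members were below their own mean, as were 8399 of all 14732 tested probe sets. This liver was the lowest of all 10 in 32 members (42.1%), against 14.2% of all tested probe sets. In APOE3 replicate 1, 61 of 76 members (80.3%) were above their own mean, against 48.3% of all tested probe sets. This liver was the highest of its genotype in 49 of the 76 members, and the highest of all 10 in 18 (23.7%), against 12% of all tested probe sets.

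APOE3 replicate 4 was also the liver with the highest macrophage markers, with a summed level of 13.72 where the other 9 livers had 12.37 to 13.17, and a median deviation of these 10 markers of 0.89. Between genotypes the macrophage markers had a median difference of -0.247, beside 0.150 for the members. Their part in the members' values was not tested. Without this liver, as given above, the members' median difference was 0.087. The hepatocyte markers of this liver summed to 17.04, inside the range of the APOE4 livers. Their median deviation in it was 0.10, where the other 9 livers had -0.04 to 0.04. Lymphocyte markers, of which 2 of 5 were above background, also summed highest in this liver, at 9.09. The 2 went different ways: Ptprc read 9.01 there, its highest value of the 10 livers, and Ms4a1 read 3.53, its lowest. Their median deviation in this liver was 0.48, below the 0.83 of APOE4 replicate 1 and the 0.81 of APOE3 replicate 2.

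The spread between animals was larger in APOE3 for most members. The median SD of the members was 0.127 in APOE4 and 0.202 in APOE3 livers, and it was larger in APOE3 in 66 of 76 members (86.8%), against 60.9% of all tested probe sets. It was larger in APOE3 in 45 of 48 large-subunit members and in 18 of 25 small-subunit members. The same held for 65 of 72 respiratory chain subunits (90.3%) but for 17 of 40 cytosolic ribosomal proteins (42.5%). No test of these shares was made.

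**Figure D4:**
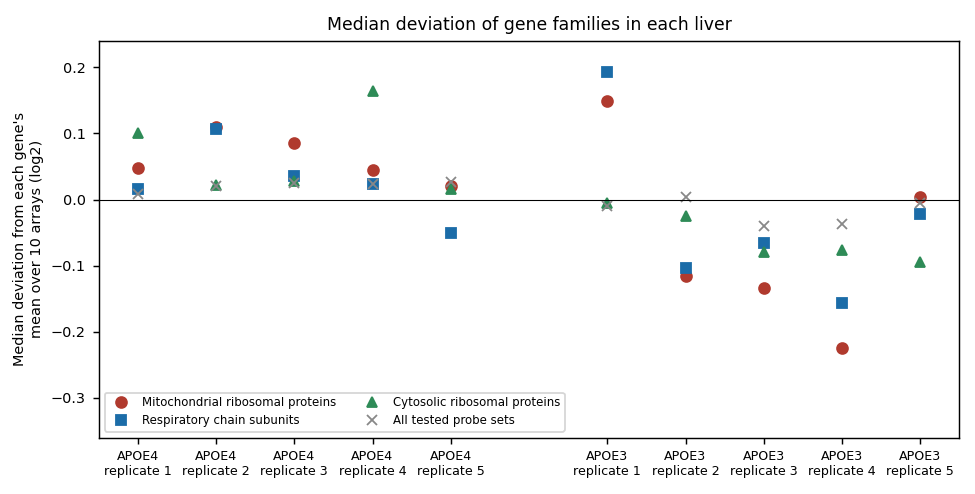
Median deviation from each gene's mean over 10 arrays, on the log2 scale (vertical axis), in each liver (horizontal axis), for 76 mitochondrial ribosomal protein genes, 72 respiratory chain subunits, 40 cytosolic ribosomal proteins and all tested probe sets. Mitochondrial ribosomal proteins run from 0.021 to 0.110 in APOE4 livers and from -0.225 to 0.149 in APOE3 livers, where respiratory chain subunits run from -0.157 to 0.193.

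Respiratory chain subunits, some of which the mitochondrial ribosome's products join in the inner membrane, followed a similar order of livers with a smaller difference between genotypes. Their median deviation was 0.016, 0.106, 0.035, 0.024 and -0.051 in APOE4 livers, against 0.193, -0.104, -0.065, -0.157 and -0.022 in APOE3 livers. APOE3 replicate 1 was again the highest and APOE3 replicate 4 the lowest. Of these 72 genes 58 had a difference above 0, with a median of 0.056, and 1 passed the adjusted test, Cox6b2, a subunit of cytochrome c oxidase known from testis, which averaged 3.12, near background, in APOE4 livers and 8.86 in APOE3 livers (adjusted p = 9.35e-06).

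Cytosolic ribosomal proteins had a shift of like size with another pattern over livers. Of 40 genes 37 were above 0, with a median of 0.131, and 9 had an unadjusted p under 0.05, with 0 past the adjusted test. Their median deviation was 0.016 to 0.164 in APOE4 livers, above the -0.094 to -0.006 of the APOE3 livers in every case. In APOE3 replicate 1, which was the highest liver for the mitochondrial ribosomal proteins, it was -0.006.

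Lists of genes that act with the mitochondrial ribosome had smaller median differences, and none of their tested genes passed the adjusted test. Among 4 further proteins of the mitochondrial ribosome under other symbols, all 4 were above 0 with a median of 0.068. Of 9 mitochondrial translation factors 6 were above 0, with a median of 0.037, and Mrrf, which recycles ribosomes after termination, had a difference of 0.22 (adjusted p = 0.67). Of 13 mitochondrial aminoacyl-tRNA synthetases 7 were above 0, with a median of 0.039, and Yars2, which charges tyrosine tRNA, had a difference of 0.41 ± 0.162 (SE; adjusted p = 0.584). Of 19 assembly and rRNA modification factors 10 were above 0, with a median of 0.004, and Rbfa, which binds the maturing small subunit, had a difference of 0.34 (adjusted p = 0.588). Of 13 genes of mitochondrial DNA upkeep, transcription and RNA stability 10 were above 0, with a median of 0.060.

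Mterf2, of the mitochondrial transcription termination factor family, had the largest difference in that group. It read 5.97, 5.83, 5.83, 6.02 and 5.38 in APOE4 livers, against 6.96, 6.75, 6.18, 6.02 and 6.21 in APOE3 livers. Only APOE3 replicate 4 met the APOE4 range, and the difference was -0.61 ± 0.196 (SE; adjusted p = 0.528). Slirp, which stabilises mitochondrial mRNAs, had a difference of 0.22 (adjusted p = 0.67).

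Of 8 tested regulators of mitochondrial biogenesis 3 were above 0, with a median of -0.061. Gabpa, a subunit of the ETS factor GABP, averaged 9.08 ± 0.26 in APOE4 and 9.33 ± 0.14 in APOE3 livers (SD; difference -0.25, adjusted p = 0.67). Ppargc1a, a coactivator of nuclear respiratory factors, averaged 7.06 ± 0.69 in APOE4 and 7.45 ± 0.31 in APOE3 livers (difference -0.40, adjusted p = 0.747).

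Differences were set beside the promoter motifs, without a test. The 17 members with an ETS match had a median difference of 0.140, and the 50 without had 0.150. The 8 members with an NRF1 match had a median of 0.200, and the 59 without had 0.150.

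Many members start next to another gene that runs the other way. With starts at most 1000 bases apart, this held for 23 of the 67 members with a window (34.3%), against 1483 of 17491 protein-coding genes (8.48%). Mrps11 and Mrpl46, 1 from each subunit, form such a pair with starts 42 bases apart, and their differences were 0.41 and 0.23. Beside that pair, 14 members had a tested neighbour that is no member, and 11 of these neighbours were above 0 and 3 below, with a median of 0.095. Over all tested genes 59.6% were above 0, with a median of 0.039. Several of these neighbours were close to background, among them Hira (4.18 in APOE4 and 4.32 in APOE3 livers) and Ppp1r10 (4.42 and 4.17).

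The neighbour's difference was like the member's in some pairs and not in others; the 4 pairs given here were chosen after their values had been seen. Mrpl18 (0.18, adjusted p = 0.678) and its neighbour Tcp1, a subunit of the cytosolic chaperonin, at 0.25 (adjusted p = 0.583), were alike in size, with starts 238 bases apart. Mrpl47 had a difference of 0.33, while Ndufb5, a complex I subunit whose start is 308 bases away, had -0.04 (adjusted p = 0.95). Mrps12 had 0.23, while Sars2, the mitochondrial seryl-tRNA synthetase whose start is 147 bases away, had -0.36 (adjusted p = 0.637), at levels close to background of 4.32 ± 0.27 in APOE4 and 4.68 ± 0.33 in APOE3 livers (SD). The neighbour with the largest difference was Pnpla7, a lysophospholipase, at 0.48 ± 0.134 (SE; adjusted p = 0.452), beside Mrpl41 at 0.10. Differences between a member and its neighbour were not tested.

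**Figure D5:**
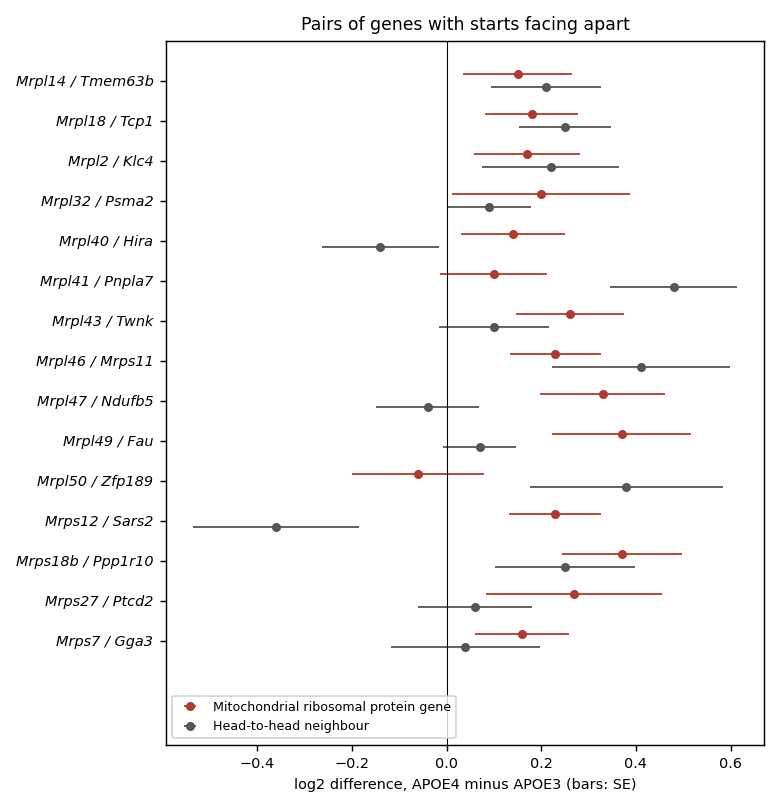
Log2 difference, APOE4 minus APOE3 (horizontal axis; points, with SE as bars), for members (red) and the tested neighbour that starts within 1000 bases and runs the other way (grey). Neighbours lie on both sides of 0, from Sars2 at -0.36 to Pnpla7 at 0.48.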

How the data were processed

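Total RNA from 10 livers, labelled with biotin from 2 µg each, was measured on one-colour arrays. The authors deposited log2 values, which the submitters' processing notes link to GCRMA 2.12.1 and R 2.7.1; any probe filter and the design's genome build are not stated in those notes. GCRMA corrects background and puts undetected transcripts at a low floor. Groups came from the sample titles. Gene names came from GEO's platform annotation, which gave 34958 of 45101 probe sets 1 symbol, 932 several and 9211 none.

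Leaving out 64 control probe sets, the 14732 probe sets with a mean log2 of at least 4 over all arrays were fitted with limma 3.58.1 in R 4.3.3 (lmFit, eBayes, two-sided, no covariate, Benjamini-Hochberg over all 14732). Lists were described on 1 probe set per gene. On simulated data of this size the fit recovered 0% of differences of 0.25, 24% of 0.5, 74% of 1 and 98% of 2 (log2). Members were named by a rule that took 33: the 8 with the smallest p in each direction (all 7 that were lower), the 2 with the smallest p in each class, those without overlap, those with the largest gap between probe sets, those with the largest and smallest spread, and 12 set by name. Mrpl18, Mrpl19, Mrpl41, Mrpl43, Mrpl55 and Mrps28 were named besides, after their values had been seen. Members and lists were chosen with earlier results of these data known. Promoters came from RefSeq tables (GRCm38.p6). Alternatives were other filters, scalings, array weights, a trended robust fit, a replicate block and leaving out each animal. The labels name no batch or scan date.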

Additional observations from a re-analysis of the deposited data

Results flagged for a closer look

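Among 68 groups of 5 values examined (named members in each genotype, and the medians over members), 3 had a liver set apart from the other 4, and chance gives about 1 such group in 20. Mrpl13 read 10.28 in APOE4 replicate 5, below the 10.54 to 10.59 of the other APOE4 livers. Mrpl32 read 8.62 in APOE3 replicate 4, below the 9.40 to 9.71 of the other APOE3 livers, and this was also the liver with the lowest members and the highest macrophage markers. Mrps22 read 9.56 in APOE4 replicate 2, above the 9.22 to 9.31 of the other APOE4 livers.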

How the results depend on the processing

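The count of members past the adjusted test was 0 under every alternative run, with a smallest adjusted p of 0.222, without APOE3 replicate 1. Over all tested probe sets 12 passed, 5 with a filter at a mean of 6 (9648 probe sets tested) and 8 to 14 with 1 animal left out. The members' median difference of 0.150 ran from 0.087 to 0.206 with 1 animal left out, and the count above 0 from 63 to 71. These ranges are given without those of all tested probe sets. The members' median was 0.169 with array weights, and 0.134 over all 114 tested probe sets of members. With the replicate block the median was 0.150 and 11 probe sets in all passed, 0 of them members. The numbers were not taken to pair animals: same-numbered livers had correlations of their deviations of 0.002, 0.186, 0.414, -0.079 and 0.294, and 2 of 5 pairs matched best with their own number. Of 593 values under alternatives of the 33 members named by rule, 13 had the other sign to 2 decimals, all with a size of 0.04 or less: Mrpl15 (0.02 with array weights, 0.02 without APOE3 replicate 1, 0.01 without APOE3 replicate 2 and 0.02 without APOE4 replicate 5), Mrpl50 (0.02 without APOE3 replicate 2), Mrpl54 (0.04 without APOE3 replicate 1, 0.03 without APOE3 replicate 5, 0.02 without APOE4 replicate 3 and 0.01 without APOE4 replicate 5) and Mrpl58 (-0.03 with arrays centred on their median, -0.01 with renewed quantile normalization, and -0.01 without APOE3 replicate 2 or 3). Values that round to 0.00, such as that of Mrpl15 without APOE4 replicate 1, were not counted. The cause of these sign changes was not tested. On simulated data with 5 animals in each genotype, 0% of differences of 0.25 and 24% of differences of 0.5 passed the adjusted test. That simulation drew on all tested probe sets and not on the members alone.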
